A study of Mus musculus with 3 samples.

Results

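The replication-dependent histone genes were taken as every gene of the raw count table whose GENCODE M21 symbol starts with Hist1h, Hist2h, Hist3h or Hist4h, which gave 49 of the 19723 genes. They comprised 5 genes for H1, 13 for H2A, 12 for H2B, 7 for H3 and 12 for H4. Of the 49, 44 lay on chromosome 13, which holds mouse histone cluster 1, 3 on chromosome 3, 1 on chromosome 11 and 1 on chromosome 6. The rule used gene names only and no measured value. RNA was sequenced from 3 pools of sorted cells; all mice were BALB/c females, 6 to 8 weeks old. Myeloid-derived suppressor cells (MDSCs, a mixed class of immature myeloid cells known for restraining T cells) were pooled from 20 tumours after treatment with alisertib, which inhibits the mitotic kinase Aurora A, and from 20 tumours of control animals, which the labels call both untreated and control treated. The third pool was normal neutrophils sorted from 5 wild-type marrows. Each group was 1 library, so no value has a replicate, no p-value was computed, and every comparison describes these libraries rather than the conditions. No source used here gives the tumour line, dose, surface markers of the sort or RNA selection.

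Histones are the proteins around which DNA is wound: a pair each of H2A, H2B, H3 and H4 forms the nucleosome core, and H1 binds the linker DNA between cores. The genes studied here are known for supplying most histone protein while DNA is copied in S phase, and their mRNAs classically end in a conserved stem-loop in place of a poly(A) tail. The stem-loop is bound by SLBP, the protein that guides processing and translation of these mRNAs. Some members, among them Hist1h1c and Hist1h2bc, are known to be made also as polyadenylated mRNA outside S phase.

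The stem-loop is shown because it defines the class and differed between members by only a few letters. It was searched on the sense strand of GENCODE M21 transcripts as GG, 2 bases of any kind, CTTTT, 1 base of any kind, AG, 2 bases that pair with the first 2, and CC. A match was found in 33 of the 49 genes, namely 3 of H1, 8 of H2A, 7 of H2B, 5 of H3 and 10 of H4. Some annotated models end too early to hold one. That of Hist1h2ai had 393 bases, of which 390 were coding, and that of Hist1h4k 312, of which 309 were coding. A missing match therefore does not show that a gene lacks the stem-loop. Among 21896 other protein-coding genes, 11 held one (0.0502%), and 7 of these also carry histone symbols. Capitals mark the stem-loop and lower case the 5 bases on either side; each is written as DNA, 5′ to 3′.
Hist1h1c: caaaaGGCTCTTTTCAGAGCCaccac
Hist1h1e: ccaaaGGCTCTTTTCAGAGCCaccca
Hist1h2bb: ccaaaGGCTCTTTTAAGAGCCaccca
Hist1h3f: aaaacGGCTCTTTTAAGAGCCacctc
Hist1h4h: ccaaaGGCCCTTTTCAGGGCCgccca
Hist1h4i: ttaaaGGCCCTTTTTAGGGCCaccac
Hist1h4j: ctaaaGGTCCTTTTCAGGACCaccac
The form in Hist1h1c and Hist1h1e was the most common, with 18 genes, and the form in Hist1h2bb and Hist1h3f occurred in 5. The form in Hist1h4h occurred in 7 genes, that of Hist1h4i in 2 and that of Hist1h4j in 1. In 16 of the 33 genes the annotated transcript ran more than 300 bases past the stem-loop, and in 10 of those the further stretch held AATAAA or ATTAAA, the letters of the poly(A) signal. Hist1h1c was one of them, with 840 bases past its stem-loop and 2 such signals. No match was found in the annotated models of Hist1h2bc and Hist1h2al.

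Promoters are shown because the classes differ there as well. RefSeq promoters (GRCm38.p6, 250 bases before to 50 after the start) matched 43 of the 49 genes by name or ID, each on the gene's own strand and at its own position, and exact letters were searched on both strands in these and in all 27025 promoters of the table. CCAAT was present in 81.4% of the histone promoters and 37.9% of all promoters. It was in all 5 H1, 11 H2A, 10 H2B and 6 H3 promoters but in 3 of 11 for H4. TATAAA was present in 58.1% of histone promoters and 14.2% of all. The octamer ATTTGCAT, the binding letters of OCT1, was in 5 of 11 H2A and 3 of 10 H2B promoters and in none of the H1, H3 or H4 promoters, against 1.75% of all promoters. AAACACA, the H1 box, was in 4 of 5 H1 promoters and 1 of 11 H2A promoters, against 7.14% of all promoters. No histone promoter had matches of different motifs that overlapped. Neighbouring H2A and H2B genes on opposite strands can have overlapping windows, so a site can count for both genes. The octamers of Hist1h2bg and Hist1h2bk are the same sites as those of Hist1h2ae and Hist1h2ah. Some TATAAA matches are shared in this way too, such as that of Hist1h2bf with Hist1h2ad. The class counts are therefore not all of separate sites. The 250 bases before the start follow for the leading H1 genes, for 1 H2B gene and for the leading H4 gene, 5′ to 3′ on the gene's strand, with the motif letters of either strand in capitals. Hist1h1c lies at chr13:23738557-23738806 on the plus strand, Hist1h1e at chr13:23622559-23622808 on the minus strand, Hist1h2bb at chr13:23746484-23746733 on the plus strand and Hist1h4i at chr13:22041363-22041612 on the minus strand.
Hist1h1c: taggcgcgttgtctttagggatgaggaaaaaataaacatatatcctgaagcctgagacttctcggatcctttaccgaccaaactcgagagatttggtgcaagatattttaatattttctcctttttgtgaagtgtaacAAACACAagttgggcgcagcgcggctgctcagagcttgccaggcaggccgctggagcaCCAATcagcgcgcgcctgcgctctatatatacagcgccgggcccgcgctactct
Hist1h1e: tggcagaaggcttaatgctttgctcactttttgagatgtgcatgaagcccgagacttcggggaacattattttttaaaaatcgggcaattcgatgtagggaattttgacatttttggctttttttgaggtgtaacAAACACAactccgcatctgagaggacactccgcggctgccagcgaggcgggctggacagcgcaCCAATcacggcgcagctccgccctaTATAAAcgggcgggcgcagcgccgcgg
Hist1h2bb: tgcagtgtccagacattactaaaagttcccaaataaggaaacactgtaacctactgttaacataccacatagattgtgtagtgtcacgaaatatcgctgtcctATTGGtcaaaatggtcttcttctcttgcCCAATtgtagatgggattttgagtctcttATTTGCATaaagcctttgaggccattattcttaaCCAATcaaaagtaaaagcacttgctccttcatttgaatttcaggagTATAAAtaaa
Hist1h4i: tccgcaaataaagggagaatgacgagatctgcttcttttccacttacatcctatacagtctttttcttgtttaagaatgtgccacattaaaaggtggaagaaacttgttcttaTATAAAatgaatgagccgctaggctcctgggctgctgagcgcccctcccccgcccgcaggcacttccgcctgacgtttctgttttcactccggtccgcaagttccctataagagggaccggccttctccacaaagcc
The H1 pair share the H1 box followed by CCAAT. Hist1h2bb holds the octamer between CCAAT matches, and Hist1h4i holds TATAAA alone of the 4 motifs. A match describes letters in the window and was not measured as a site here.

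The libraries held 19373087 counts (alisertib MDSCs), 21959748 (control MDSCs) and 21987097 (bone marrow neutrophils). Counts were compared as CPM, counts divided by the library size in units of 1000000, with sizes scaled by TMM (a scaling that sets most genes near no change). Ratios carry exact 95% intervals that cover counting error only. Between genes, levels were compared by the FPKM values the authors deposited, which are per kilobase of gene length. Defining neutrophil markers were present in all 3 libraries, but their summed level over 11 genes was 13779 CPM with alisertib, 33610 in control MDSCs and 102952 in bone marrow.

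Histone transcripts were dominated by 1 linker histone gene. The 49 genes summed to 14744 counts in alisertib MDSCs, 24865 in control MDSCs and 6603 in bone marrow neutrophils. Hist1h1c (ENSMUSG00000036181, chr13:23738808-23740367, which encodes the linker histone H1.2) alone held 10542, 20731 and 4971 of them in the same order. It was also the highest per length, at 316.2, 662.7 and 136.6 FPKM. Next in control MDSCs came the H4 gene Hist1h4i at 74.2 FPKM, Hist1h2al at 71.5 FPKM and the H2B gene Hist1h2bc at 48.6 FPKM. Hist1h1e, the gene for linker histone H1.4, followed at 24.0 FPKM, and Hist1h4h, another H4 gene, at 11.8 FPKM. Most of the other genes were far lower: 23, 22 and 17 of the 49 reached 1 FPKM with alisertib, in control MDSCs and in bone marrow, and 6, 7 and 4 reached 10 FPKM. Transcripts without a poly(A) tail are counted more or less completely depending on how RNA is selected for a library. As that selection is not known here, the levels between genes, the class shares and the low H3 counts below hold for these libraries only. Hist1h2an, an H2A gene, had no count in any library, and 23 of the 49 genes passed the filter of 1 CPM in at least 1 library.

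**Figure D1:**
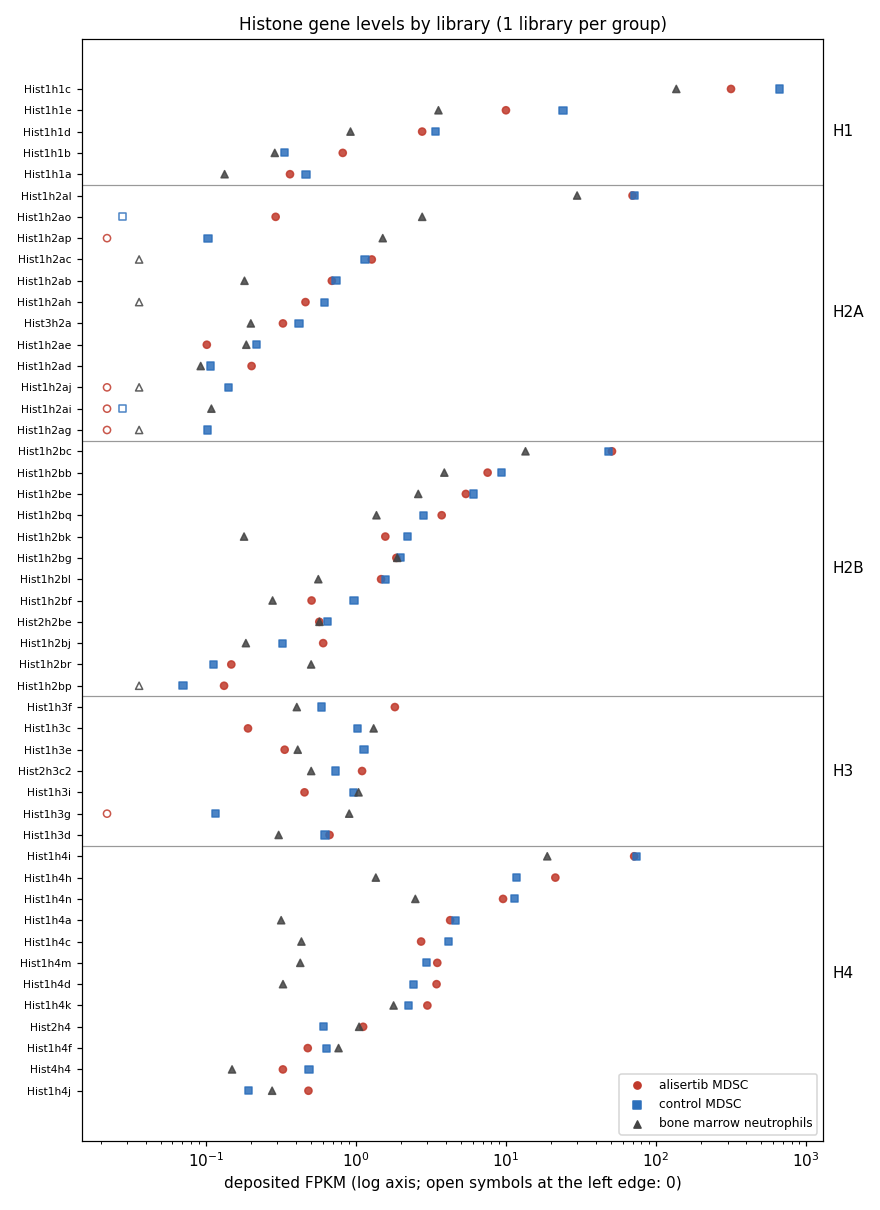
Level of each histone gene in deposited FPKM (log axis), 1 symbol per library and gene, with open symbols at the left edge for genes listed at 0. Hist1h1c stands at 136.6 to 662.7 FPKM, and most genes lie below 10 FPKM in every library.

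The classes differed in how evenly their members were used. Hist1h1c held 97.9% of H1 counts with alisertib, 98.0% in control MDSCs and 98.3% in bone marrow. Hist1h2al held 92.6%, 92.0% and 80.4% of H2A counts in that order. GENCODE M21 lists Hist1h2al (chr13:51202727-51203065) as a processed pseudogene that lies apart from the cluster, and only 32.4% of its 50-base windows were unique among annotated transcripts. Its reads cannot be told apart with certainty from those of other H2A copies. H2A without it held 45, 47 and 64 counts, at 2.17, 2.41 and 2.77 CPM. Hist1h4i held 67.9%, 72.7% and 71.1% of H4 counts. The H2B class was more even, with Hist1h2bc at 48.4%, 45.8% and 33.0%. The H3 class had the fewest counts, with 77, 70 and 66 over 7 genes. Its unique 50-base windows ran from 12.4% in Hist1h3i to 75.2% in Hist1h3d. H3 genes absent from the count table, such as Hist1h3b, are not in this sum.

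H1 took the largest share of histone counts in each library, at 73.0% with alisertib (exact binomial interval 72.3 to 73.7%), 85.1% in control MDSCs (84.6 to 85.5%) and 76.6% in bone marrow (75.5 to 77.6%). Among the 4 core classes, H4 made up 41.2% of counts with alisertib (39.6 to 42.7%), 40.1% in control MDSCs (38.5 to 41.7%) and 29.1% in bone marrow (26.8 to 31.4%). These intervals overlapped between the MDSC libraries and lay apart from that of bone marrow. H2B took 41.6%, 42.2% and 45.5%, H2A 15.3%, 15.9% and 21.1%, and H3 1.94%, 1.89% and 4.27%. Per length, as shares of the summed core FPKM, control MDSCs had 42.7% H4, 27.7% H2A, 27.6% H2B and 1.915% H3. The nucleosome core itself holds these 4 proteins in equal amounts, but the shares here are of RNA and do not measure protein. They also leave out histone genes outside the naming rule, such as the H3 gene H3f3b at 750.1 FPKM in control MDSCs.

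**Figure D2:**
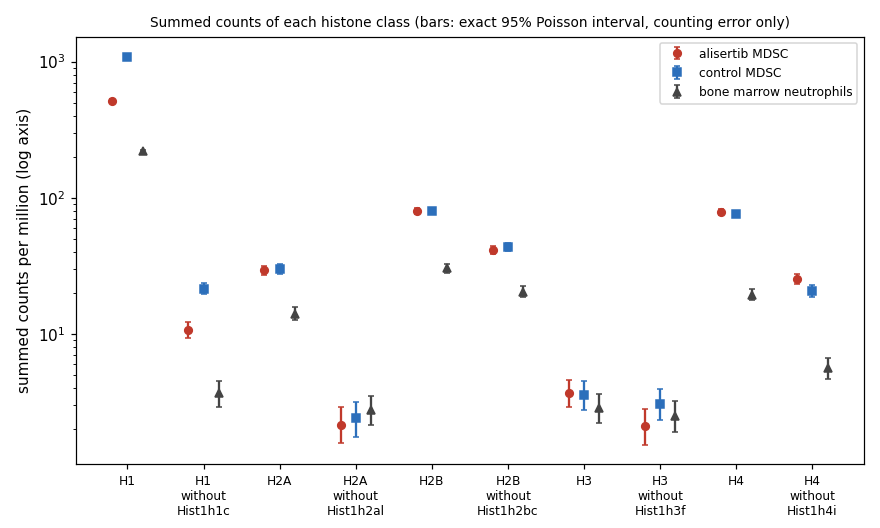
Summed CPM (log axis) of each histone class in the 3 libraries, with and without its most abundant gene; bars are exact 95% Poisson intervals, which cover counting error only. H1 is highest in every library at 219.2 to 1083 CPM, and H3 is lowest among the full classes at 2.86 to 3.71 CPM.

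The first comparison asked what differed in tumour MDSCs after alisertib. Hist1h1c, the main linker histone gene, was lower in the alisertib library, and the summed core classes were near their control level with TMM scaling. A gene was called when the interval bound nearest to 1 was at least 2-fold; by this rule 1.18% of the 13019 genes past the filter were lower and 1.8% higher. Of the 23 histone genes past the filter, 1 was called lower, Hist1h1c, and none higher. The median log2 ratio of the 23 was -0.05 against 0.00 for all genes, with 10 above and 13 below no change. That share is 1 gene in a small list, and nothing is read from it about the list.

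Hist1h1c fell from 1061 CPM in control MDSCs to 507.9 CPM with alisertib, a ratio of 0.479 (0.467 to 0.490), or 2.09-fold lower (2.04 to 2.14). Bone marrow stood lower than both, at 215.5 CPM. With total counts in place of TMM the log2 ratio moved from -1.06 to -0.79 and Hist1h1c was no longer called. Hist1h1e stood at 7.71 CPM with alisertib, 18.4 in control MDSCs and 2.69 in bone marrow. Its ratio to control was 0.418 (0.345 to 0.505), a bound just short of the rule. The third H1 gene past the filter, Hist1h1d (linker histone H1.3), had 44 and 51 counts, a ratio of 0.812 (0.530 to 1.24). Without Hist1h1c the H1 class still had a ratio of 0.495 (0.419 to 0.584), which rests on Hist1h1e with 160 of 222 alisertib counts and 360 of 422 control counts. Hist1h1b had 13 counts with alisertib and 5 in control MDSCs, a ratio of 2.45 (0.819 to 8.77), and Hist1h1a had 5 and 6; both were below the filter.

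The core classes gave ratios of alisertib to control close to 1: H2A 0.973 (0.867 to 1.09), H2B 0.995 (0.928 to 1.07), H3 1.04 (0.739 to 1.45) and H4 1.04 (0.966 to 1.11). The interval of the H1 class, 0.479 (0.468 to 0.490), overlapped none of these. With total counts the same ratios were 0.577 for H1, 1.17 for H2A, 1.199 for H2B, 1.25 for H3 and 1.25 for H4, while the median of all genes moved to a log2 ratio of 0.27. A scaling multiplies every class by the same factor, so it cannot alter their order, but it sets where the core classes stand against no change. All 49 genes together gave 0.558 (0.547 to 0.570), and without Hist1h1c 0.957 (0.916 to 0.999).

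Within the core classes single genes ran in both directions without being called. The H4 gene Hist1h4h had 216 counts with alisertib, 112 in control MDSCs and 15 in bone marrow, a ratio of 1.82 (1.44 to 2.30) to control. Hist1h4i, the main H4 gene, had 1112, 1081 and 320 counts and a ratio of 0.968 (0.890 to 1.05). The 2 leading H4 genes thus had intervals that did not overlap. In H3, Hist1h3f had 33, 10 and 8 counts and a ratio of 3.11 (1.495 to 7.06), whereas Hist1h3e had 6, 19 and 8 and a ratio of 0.297 (0.0971 to 0.774). The intervals of these H3 genes did not overlap, and neither gene met the rule. Only 26.6% of the sequence windows of Hist1h3e and 50.7% of those of Hist1h3f were unique among annotated transcripts. The stem-loop and the bases next to it were the same in both genes. Reads of either gene thus cannot be assigned with certainty. The part of read assignment in their opposite directions was not tested. Hist1h3c had 2, 10 and 15 counts, with a ratio of 0.188 (0.0201 to 0.883). In H2B, Hist1h2bc had 801 and 717 counts and a ratio of 1.05 (0.949 to 1.16), and Hist1h2be 506 and 534, a ratio of 0.892 (0.788 to 1.009).

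Beside the lower linker histones, the replacement histone gene H3f3b, whose mRNA is polyadenylated, stood at 1413 CPM with alisertib and 2292 in control MDSCs, a ratio of 0.617 (0.608 to 0.626) that was not called. H1f0, the gene for the replacement linker histone H1.0, stood at 36.4 and 37.9 CPM, a ratio of 0.959 (0.865 to 1.06). Of RNAs known to lack a poly(A) tail, Rpph1, the RNA of ribonuclease P, had 112 and 208 counts, a ratio of 0.507 (0.399 to 0.641). Rn7sk had 306 and 430 counts, a ratio of 0.670 (0.576 to 0.777). Control MDSCs against bone marrow had ratios of 2.43 (1.91 to 3.12) for Rpph1 and 1.32 (1.15 to 1.52) for Rn7sk. Alisertib MDSCs against bone marrow had 1.23 (0.933 to 1.63) and 0.883 (0.758 to 1.03). The part of these genes in the H1 difference, or in the histone differences from bone marrow below, was not tested.

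The second comparison set control MDSCs from tumours against bone marrow neutrophils. Histone transcripts were mostly higher in the tumour MDSCs, led by H1 and H4. Of all genes past the filter, 18.3% were called higher and 22.9% lower. Of the 23 histone genes past it, 14 were called higher and 1 lower, with a median log2 ratio of 1.87 against -0.14 for all genes. With total counts in place of TMM, 9 were called higher, when 15.1% of all genes were. Of the genes past the filter, those called higher were 3 of 3 for H1, 1 of 2 for H2A and 3 of 7 for H2B. For H3 it was none of 2 and for H4 7 of 9. Genes that passed the filter through 1 high library were more likely to differ, so these counts describe the list and do not stand as a test. All 49 genes summed to 4.45 times the bone marrow level (4.33 to 4.57), or 2.99 times without Hist1h1c (2.82 to 3.17).

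**Figure D3:**
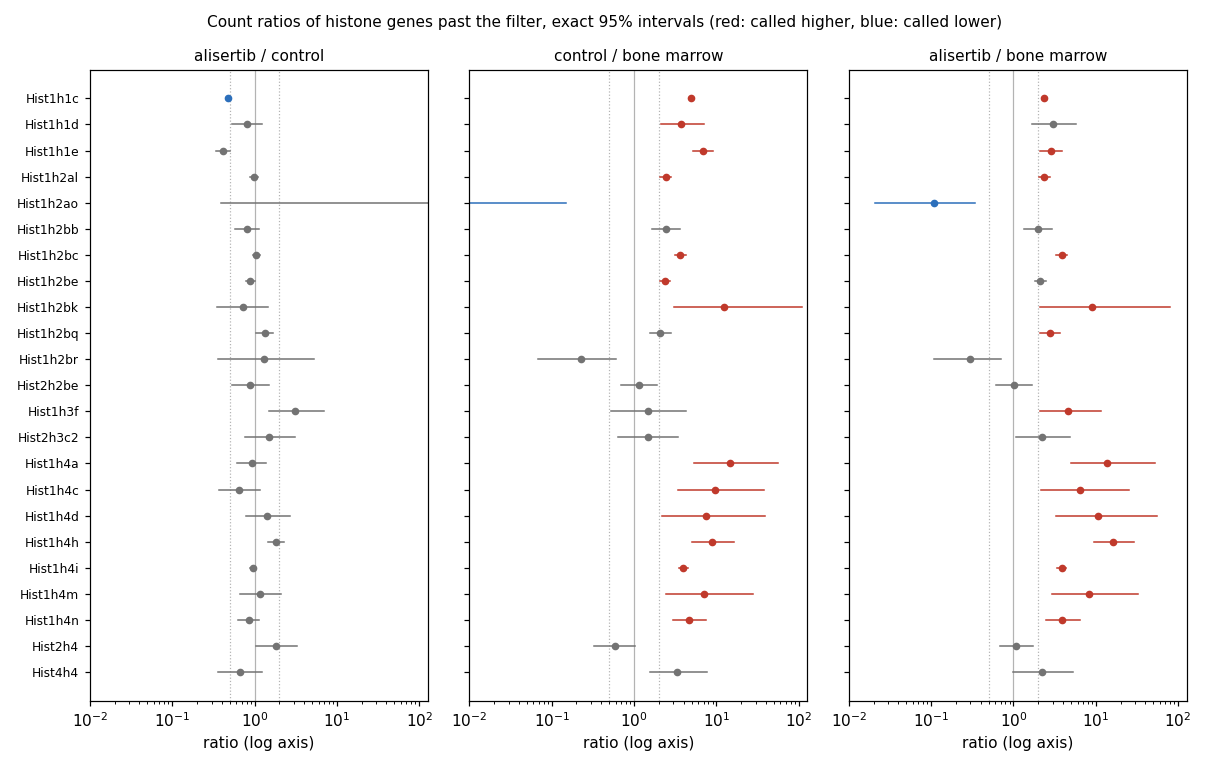
Count ratio (log axis) with its exact 95% interval for each of the 23 histone genes past the filter, 1 panel per comparison; red marks genes called higher and blue genes called lower, dotted lines mark 2-fold, and Hist1h2ao, with 0 counts in control MDSCs, is drawn there as an interval without a point. In the panel of alisertib against control only Hist1h1c is coloured, and in each panel against bone marrow 14 genes are red and 1 is blue.

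All 3 H1 genes past the filter were higher in control MDSCs than in bone marrow. Hist1h1c stood at 1061 against 215.5 CPM, a ratio of 4.93 (4.78 to 5.08). Hist1h1e, with 360 against 62 counts, had a ratio of 6.86 (5.23 to 9.13), and Hist1h1d, with 51 against 16 counts, one of 3.76 (2.11 to 7.07).

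Of the 12 H4 genes, 7 were called higher. Hist1h4i stood at 55.3 against 13.9 CPM, a ratio of 3.99 (3.52 to 4.53). Hist1h4h was at 5.73 against 0.650 CPM, a ratio of 8.82 (5.12 to 16.3). Hist1h4a had 50 against 4 counts, a ratio of 14.8 (5.42 to 56.3), the highest point estimate among the 23 genes. Also called higher were Hist1h4c (9.74, 3.47 to 37.9), Hist1h4d (7.48, 2.20 to 39.5), Hist1h4m (7.09, 2.43 to 28.1) and Hist1h4n (4.63, 2.96 to 7.50). The H4 genes are known to encode the same protein from separate copies. Outside cluster 1, Hist2h4 on chromosome 3 had 20 against 40 counts, a ratio of 0.591 (0.327 to 1.03), and Hist4h4 on chromosome 6 had 28 against 10, a ratio of 3.31 (1.56 to 7.63). Neither was called. In cluster 1, Hist1h4k had 14 against 13 counts, a ratio of 1.27 (0.555 to 2.94). Hist1h4f, with 5 against 7 counts, had a ratio of 0.844 (0.211 to 3.09) and Hist1h4j, with 3 against 5, one of 0.709 (0.110 to 3.64). These last 3 H4 genes were below the filter.

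The H2B genes called were Hist1h2bc, at 36.7 against 10.1 CPM with a ratio of 3.65 (3.14 to 4.25), Hist1h2be (2.37, 2.04 to 2.76) and Hist1h2bk (12.4, 3.03 to 109.1, from 21 against 2 counts). The counted model of Hist1h2be was 4374 bases long. In GENCODE M21 it overlaps Hist1h1e on the same strand, but the counted model of Hist1h1e was shorter than the annotated one, and whether the counted models overlap is not known. Hist1h2bb had 85 against 41 counts, a ratio of 2.45 (1.67 to 3.65), and Hist2h2be 34 against 35, a ratio of 1.15 (0.694 to 1.89). Hist1h2bg had 19, 19 and 21 counts in the alisertib, control and marrow libraries.

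In H2A the class ratio rested on 1 gene. Hist1h2al was called higher at 27.8 against 11.4 CPM, a ratio of 2.43 (2.10 to 2.83). Without it the other 12 H2A genes gave a ratio of 0.867 (0.582 to 1.28), while H4 without Hist1h4i gave 3.69 (3.02 to 4.53) and H1 without Hist1h1c gave 5.86 (4.64 to 7.49). H2B without Hist1h2bc gave 2.12 (1.90 to 2.38) and H3 without Hist1h3f 1.22 (0.837 to 1.78). The interval of H2A lay below those of H1, H4 and H2B and overlapped that of H3. Hist1h2ao ran against the rest, with 3 counts with alisertib, 0 in control MDSCs and 31 in bone marrow, which makes it at least 8.75-fold lower in control MDSCs when its 0 is set to a floor of 3 counts. The floor ignores counting error in bone marrow, and the exact interval of the same fold reached down to 6.70. Its neighbour Hist1h2ap had 0, 1 and 17 counts and a control ratio of 0.0695 (0.00166 to 0.443), below the filter. Hist1h2ac went the other way, with 13, 11 and 0 counts, at least 4.33-fold higher in control MDSCs than in bone marrow by that floor (interval bound 2.96), and also failed the filter. Hist1h2ab had 7, 7 and 2 counts and Hist1h2ah 4, 5 and 0.

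Hist1h2ao and Hist1h2ap have identical coding sequences and lie on opposite strands of cluster 1, at chr13:21810465-21810944 and chr13:21833026-21833507, next to the H2B genes Hist1h2bq and Hist1h2br, which are also identical in coding sequence. Reads of each pair cannot be assigned to 1 copy with certainty, so the pairs were also summed. The H2A pair held 3 counts with alisertib, 1 in control MDSCs and 48 in bone marrow, and was 40.6-fold lower in control MDSCs than in bone marrow (6.95 to 1638) and 14.4-fold lower with alisertib (4.64 to 72.3). The H2B pair held 184, 131 and 97 counts, a ratio of control to bone marrow of 1.60 (1.22 to 2.10). Hist1h2br alone had 7, 5 and 26 counts and Hist1h2bq 177, 126 and 71, so against bone marrow the members of this H2B pair ran in opposite directions while their sum was higher in the MDSC libraries. The nearby H4 genes Hist1h4m and Hist1h4n, which are identical in coding sequence too, summed to 118, 122 and 29 counts, a ratio of 4.97 (3.29 to 7.73).

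H3 was the 1 class whose interval included no change, at a ratio of 1.25 (0.882 to 1.78), and no H3 gene was called. Hist1h3g had 0, 1 and 9 counts and a ratio of control to bone marrow of 0.131 (0.00299 to 0.947), below the filter. Hist1h3i had 4, 8 and 10 counts and Hist2h3c2 24, 15 and 12. In order of their ratio the classes ran H1 at 4.94 (4.79 to 5.10), H4 at 3.90 (3.51 to 4.35), H2B at 2.63 (2.40 to 2.88), H2A at 2.13 (1.86 to 2.44) and H3 last. The intervals of H2B and H2A overlapped slightly, and those of H1, H4 and H2B did not overlap.

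The third comparison set alisertib MDSCs against bone marrow neutrophils, and it shares the bone marrow library with the second. Of all genes past the filter, 18.7% were called higher and 22.3% lower. Of the 23 histone genes, 14 were called higher and 1 lower (Hist1h2ao), with a median log2 ratio of 1.51 against -0.09 for all genes. The limit given above for genes that passed the filter through 1 high library holds here too, so these values do not stand as a test. The class order changed: H4 led at 4.05 (3.64 to 4.50), followed by H2B at 2.61 (2.39 to 2.86), H1 at 2.37 (2.29 to 2.45), H2A at 2.07 (1.81 to 2.38) and H3 at 1.30 (0.921 to 1.83). H4 was the 1 class whose interval overlapped no other; that of H1 overlapped those of both H2B and H2A.

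Genes behind that order were Hist1h4h, at 10.4 against 0.650 CPM with a ratio of 16.0 (9.49 to 29.1), and Hist1h4i, with a ratio of 3.86 (3.41 to 4.39). Hist1h4a followed at 13.6 (4.99 to 52.0), from 49 against 4 counts. Hist1h1c remained above bone marrow at a ratio of 2.36 (2.28 to 2.44), and Hist1h1e at 2.87 (2.13 to 3.91). Hist1h1d, at 3.06 (1.69 to 5.80), was not called here. Hist1h3f, with 33 against 8 counts, was the 1 H3 gene called, at 4.58 (2.08 to 11.5). Hist1h2bq was called at 2.77 (2.09 to 3.70), whereas Hist1h2be, at 2.11 (1.82 to 2.46), was not. Hist1h3g, with 0 counts, was at least 2.70-fold lower than in bone marrow by the floor of 3 counts (interval bound 1.78) and Hist1h2ap at least 5.10-fold lower (interval bound 3.71).

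Genes of histone supply and of the cell cycle were set beside the histone genes in the same comparison, in which 18.3% of all genes were called higher and 22.9% lower with a median log2 ratio of -0.14. All 15 genes for histone transcription and mRNA 3′ processing passed the filter, with a median log2 ratio of control MDSCs to bone marrow of -0.03; 1 was called higher and 2 lower. Slbp, the stem-loop binding protein gene, stood at 89.3 against 49.9 CPM, a ratio of 1.79 (1.66 to 1.93), and was not called. Npat, the coactivator of histone gene transcription, was at 21.3 against 10.4 CPM, a ratio of 2.05 (1.74 to 2.41), also not called. Zfp473, a zinc finger protein of the processing complex, was higher at 6.57 (4.27 to 10.5). The genes for the processing subunits Cpsf3, which cuts the mRNA, and Cpsf2 were 3.15-fold (2.77 to 3.61) and 2.84-fold lower (2.41 to 3.37).

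Of 27 S phase genes past the filter, 17 were lower and 3 higher in control MDSCs than in bone marrow, with a median log2 ratio of -2.45. Ccna2, the S phase cyclin gene, fell from 929 counts in bone marrow to 20, which is 39.3-fold lower (25.3 to 64.7). Rrm2, a subunit of the enzyme that makes deoxynucleotides, was 11.3-fold lower (9.06 to 14.2). Among those that were higher were Pcna, the sliding clamp of DNA polymerase, at 2.55 (2.41 to 2.70), and the origin licensing gene Cdt1 at 4.07 (3.60 to 4.60). All 15 mitosis genes were lower, with a median of -4.70, among them Top2a, 32.8-fold lower (26.2 to 41.5). The S phase and mitosis lists thus had medians of the opposite sign to the histone genes, whose median was 1.87.

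Replacement histones, which are made outside S phase as well, had 2 of 11 genes higher and 2 lower, shares near those of all genes, with a median of -0.15. H3f3b was higher at 2.37 (2.33 to 2.41) and H1f0 at 2.72 (2.38 to 3.11). H2afx, the variant marked at DNA breaks, was 3.30-fold lower (2.88 to 3.80) and H2afv 4.51-fold lower (3.79 to 5.40). Of 19 histone chaperones, 3 were higher, a share near that of all genes, and 8 lower, with a median of -0.48. The chaperone gene Nap1l4 was higher at 4.47 (4.23 to 4.72), and Asf1b, the form known from dividing cells, was 9.89-fold lower (6.96 to 14.5).

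Against bone marrow the alisertib library gave these lists medians of 0.07 for histone transcription and processing, -1.73 for S phase, -4.62 for mitosis, -0.10 for replacement histones and -0.58 for chaperones. Between alisertib and control no gene of these 5 lists was called, and the medians were 0.11, 0.28, 0.17, 0.06 and 0.38, beside -1.06 for the 3 H1 genes and -0.05 for all histone genes past the filter. Slbp had 1906 and 1744 counts there, a ratio of 1.03 (0.963 to 1.10).

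**Figure D4:**
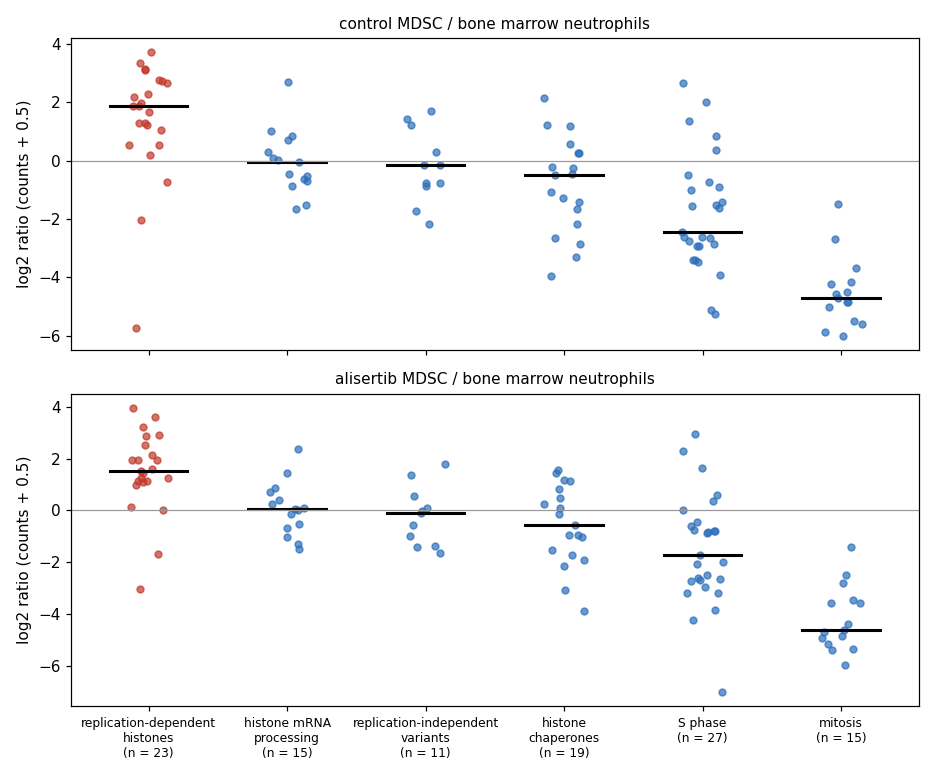
Log2 ratio to bone marrow (counts + 0.5) of each gene past the filter among the histone genes (red) and the lists of histone supply and cell cycle genes (blue), 1 panel for control and 1 for alisertib MDSCs; black bars are medians. The S phase and mitosis genes lie mostly below 0 (medians -2.45 and -4.70 for control MDSCs), while the histone genes lie mostly above 0 (median 1.87).

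Markers of other cells differed between the libraries along with these results. Granulocyte precursor markers summed to 12.7 CPM with alisertib, 10.7 in control MDSCs and 364.7 in bone marrow, with all 6 of 6 lower in both MDSC libraries and Ctsg at 0 with alisertib. The 10 macrophage markers summed to 1063, 980.4 and 329.6 CPM, with 6 of 10 higher in control MDSCs than in bone marrow and 8 of 10 with alisertib. B lineage markers summed to 40.6, 5.43 and 218.5 CPM, with Vpreb1, Igll1 and Dntt at 0 in both MDSC libraries and Rag1 and Vpreb3 also at 0 in control MDSCs. T and NK cell markers summed to 50.3, 15.8 and 144.5 CPM, the last mostly Cd3d with 3143 counts. Klrb1c was at 0 in both MDSC libraries and Ncr1 at 0 with alisertib. Of the 9 T and NK markers past the filter, 6 were called higher and 2 lower with alisertib than in bone marrow. In control MDSCs 2 were higher and 2 lower. All 10 B lineage markers past the filter were lower in both MDSC libraries than in bone marrow. Between alisertib and control, 6 of 9 T and NK markers and 5 of 10 B lineage markers were called higher, against 1.8% of all genes. Erythroid markers summed to 6.65, 7.01 and 98.1 CPM. Of 9 epithelial markers, the 4 in the count table summed to 20.1, 18.0 and 10.5 CPM, with Epcam at 73, 48 and 0 counts. The part of these cells in the histone differences was not tested, and in such bulk pools fewer cells of a type and less RNA per cell cannot be told apart.

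The gene models behind the counts bear on the levels. Counts and deposited FPKM together gave the length the authors used for 41 of the 49 genes: 25 agreed within 1% with GENCODE M21, 14 were shorter and 2 longer. For Hist1h1d the length was 744 bases against 7425 in GENCODE M21, for Hist1h1e 748 against 1930, and for Hist1h2ac 476 against 2482. The 15 genes whose counted model ran more than 200 bases past the coding sequence held 90.7%, 94.1% and 91.1% of histone counts with alisertib, in control MDSCs and in bone marrow, and the 25 with shorter models 5.43%, 3.70% and 4.82%. The median FPKM per gene in control MDSCs was 0.733 for the long models and 1.15 for the short ones. The highest was 662.7 FPKM among the long models and 24.0 among the short ones. Medians per gene and shares of summed counts are different measures. Control MDSCs exceeded bone marrow in both, at 4.59 (4.46 to 4.72) for long models and 3.42 (3.01 to 3.90) for short ones. The alisertib to control ratio was 0.538 (0.527 to 0.550) for long models, which include Hist1h1c, and 0.817 (0.743 to 0.900) for short ones, which include Hist1h1e. Sequence sharing also limits single genes: 23 of the 49 had fewer than 50% unique 50-base windows, and 6 had a coding sequence identical to that of another counted gene.

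**Figure D5:**
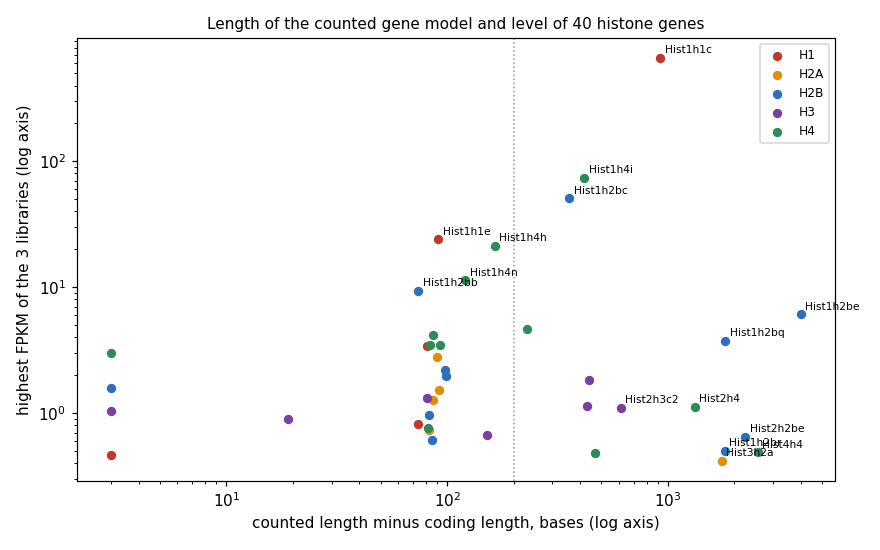
Counted length minus coding length in bases (log axis) against the highest FPKM of the 3 libraries (log axis), 1 symbol per histone gene; the dotted line marks 200 bases. Hist1h1c stands highest at 662.7 FPKM, and most genes on either side of the line lie below 10 FPKM.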

How the data were processed

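RNA from 1 pool of sorted cells per group was sequenced. Per the labels' protocols, a FACSAria sorter gave cells of over 90% purity, and NEBNext Ultra libraries were prepared from Trizol-extracted total RNA. The deposited tables hold raw counts per gene and FPKM values that the authors computed. CASAVA 1.8, STAR 2.5.1b and the builds mm9 and mm10 are named, with no role or order, per the submitters' processing notes; no source used here gives the counting tool, annotation or strand setting, so overlapping genes are uncertain. Gene symbols and positions came from GENCODE M21 (GRCm38), matched by gene ID for 19648 of 19723 genes.

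Count totals were scaled with TMM factors of 1.07148 (alisertib), 0.88952 (control) and 1.0492 (bone marrow) from edgeR 4.0.16 in R 4.3.3. All 13019 genes at 1 CPM or more in at least 1 library were compared; class sums used all members without a filter. Log2 ratios added 0.5 to each count. Intervals are exact (Clopper-Pearson) 95% intervals of the count ratio from SciPy 1.17.1. A fold against 0 counts used a floor of 3 counts in that library, which is 0.145, 0.154 and 0.130 CPM. Intervals cover counting error only, because each group was 1 library without a replicate. They treat every read as a separate molecule, although PCR copies of 1 molecule are counted as separate reads. Counting error can therefore exceed what they show. A fold from the floor leaves out counting error in the library that is not at 0. The procedure was tested on simulated data.

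Genes named were the 6 of each class with the highest FPKM in any library, every member called between alisertib and control, members called against their class, the member at 0 throughout and up to 4 genes per list, called genes first and then the most abundant. Further members were named after their values were seen. List genes such as Ccna2, Rrm2, Asf1b and Slbp were named outside this rule, and not every list gene it picked is reported here. The members and lists were chosen with earlier results of these data known. Alternatives were total counts, DESeq2 1.42.0 size factors, TMM without the 50 most abundant genes, other filters, call rules and pseudocounts, FPKM, and class sums without some members. FPKM values carried no interval, so every call by FPKM or summed FPKM used a point ratio of at least 2-fold alone.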

Additional observations from a re-analysis of the deposited data

How the results depend on the processing

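No paired analysis was possible because each group was 1 library. No called class sum and no called named histone gene turned its direction under the alternatives run. Class sums that were not called did cross 1. H2A in control MDSCs against bone marrow was 2.13, and 0.867 without Hist1h2al. H3 between alisertib and control was 1.04, and 0.690 without Hist1h3f. Class sums kept their side of the 2-fold rule in 118 of 126 recalculations, named histone genes in 335 of 348. Recalculations by FPKM were judged by the point ratio, without an interval.

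Between alisertib and control, the number of histone genes called higher was 2 by point ratio alone and 2 by FPKM + 0.1 (0 in the main comparison). Of all genes, 7.73% were called higher by point ratio and 4.66% by FPKM + 0.1. The number lower, 1 in the main comparison, was 0 with total counts, and 2 with DESeq2 size factors, by point ratio, with a 1.5-fold bound and by FPKM. The shares of all genes called lower were 0.627% with total counts and 1.425% with DESeq2 size factors. They were 4.85% by point ratio, 4.92% with a 1.5-fold bound and 3.47% by FPKM. The H1 ratio of 0.479 was 0.577 with total counts and 0.495 without Hist1h1c, neither of them called. Hist1h1e was called with DESeq2 size factors (log2 ratio -1.31). By FPKM (-1.25) it was called on the point ratio alone, while its main log2 ratio of -1.26 was not called by its interval.

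For control MDSCs against bone marrow, the 14 genes called higher became 9 with total counts and 7 at 10 CPM, where 7 of 7 genes left were called. They became 15 with no filter, 17 by point ratio, 17 with a 1.5-fold bound and 16 by FPKM. The shares of all genes called higher were 15.1% with total counts, 20.3% at 10 CPM and 13.8% with no filter. Those shares were 24.6% by point ratio, 25.4% with a 1.5-fold bound and 22.4% by FPKM. The 1 lower became 0 at 10 CPM and 2 with no filter, by point ratio, with a 1.5-fold bound and by FPKM. Of all genes, 25.4% were called lower at 10 CPM and 16.8% with no filter. By point ratio it was 30.3%, with a 1.5-fold bound 30.9% and by FPKM 28.8%. H2A was called at 2.49 without members of identical coding sequence, and H2B was not called at 2.12 without Hist1h2bc. By summed FPKM H2A was called at 2.15 on the point ratio alone, while its main ratio of 2.13 was not called by its interval. For alisertib MDSCs against bone marrow, the 14 higher became 6 of 7 left at 10 CPM, 15 with no filter, 18 by point ratio, 16 with a 1.5-fold bound and 16 by FPKM, and the 1 lower became 0 at 10 CPM and 2 with no filter, by point ratio and by FPKM. In the alisertib comparison with bone marrow H2A was called at 2.41 without members of identical coding sequence, and H2B was not called at 2.01 without Hist1h2bc. By summed FPKM H2A was called at 2.10 on the point ratio alone, while its main ratio of 2.07 was not called by its interval. A stricter filter leaves fewer genes to call; other causes were not tested. Total counts moved the median log2 ratio of all genes to 0.27 (alisertib to control) and -0.39 (control to bone marrow), and that of the histone genes to 0.24 and 1.44. Class sums limited to members with at least 50% unique windows, chosen after seeing the data, gave 0.541 for all histone genes between alisertib and control and 4.64 between control and bone marrow. Depth limits most H2A and H3 genes, which had fewer than 50 counts.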

Other observations

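Another 8 genes with such symbols were listed in the FPKM table but not in the count table, and entered no comparison. Hist1h3b, an H3 gene, was the highest, at 1.21 FPKM with alisertib, 1.37 in control MDSCs and 0.346 in bone marrow. Hist1h2bn stood at 0.900 FPKM in bone marrow and 0.262 in control MDSCs and was listed at 0 with alisertib. Hist1h3h stood at 0.114, 0.607 and 0.313 FPKM. Hist1h2ak, Hist2h2ac and Hist3h2ba were listed above 0 in bone marrow alone, at 0.327, 0.247 and 0.419 FPKM. Hist1h3a was at 0.263 and 0.280 FPKM in the MDSC libraries and listed at 0 in bone marrow, and Hist1h4b was at 0.251 FPKM in control MDSCs and at 0 elsewhere.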
